A study of Gallus gallus with 12 samples.

Results

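The genes that write, maintain and remove methyl groups on cytosine were followed through 12 RNA-seq libraries of chicken primordial germ cells (PGCs). The set was fixed by name and held 8 genes: *DNMT1*, *DNMT3A*, *DNMT3B* and *UHRF1* on the writing side, and *TET1*, *TET2*, *TET3* and *TDG* on the erasing side. Of these, 6 were found by name among the 24356 genes of the expression table. *TET1* and *TET3* were not found among its gene names and were not analysed here. PGCs of white Leghorn embryos were sorted with an antibody against SSEA-1, a carbohydrate antigen on the surface of early germ cells. Circulating PGCs (cPGCs) came from the blood at E2.5, and gonadal PGCs (gPGCs) from the gonads at E4.5 and E6.5, where E is the day of incubation. At each of the 3 stages, 2 libraries were made from female (ZW) embryos and 2 from male (ZZ) embryos, each from a pool of 6 to 14 embryos. The labels name no altered allele and no treatment in any group. Separate pools vary by embryos as well as by sorting and amplification, so the p-values below measure the spread between pools. Expression is given in TPM, the reads on a gene per unit of its length, scaled to the same sum in every library.

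In the sex contrasts a positive log2 fold change means higher in females, and in the stage contrasts higher at the later stage. Between 7185031 and 13749166 reads per library lay on genes, fewest in the first E4.5 pool of each sex. Germ cell markers, 12 of them in the table, summed to between 2601 and 5091 TPM in every library, and the germ cell RNA helicase gene *DDX4* had at least 134.8 TPM in each. Gonadal somatic markers, 15 genes, summed to at most 50.02 TPM. Erythroid markers, 9 genes that include the globins, summed to 165417 TPM in the first E2.5 ZW pool, to between 2571 and 44514 TPM in the other E2.5 pools, and to at most 631 TPM later. Of the mesonephros and epithelial markers, 10 genes of the tissue beside the gonad, the sum was 568 and 4377 TPM in the E6.5 ZW pools, against 36.5 and 22.1 TPM in the E6.5 ZZ pools.

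In vertebrates, DNA methyltransferases transfer a methyl group from S-adenosylmethionine to cytosine, mostly where a guanine follows. DNMT3A and DNMT3B are the de novo enzymes that place new marks, while DNMT1 copies marks onto the new strand after replication, guided there by UHRF1, a protein that binds hemimethylated sites. TET enzymes oxidise the methyl group, and the thymine DNA glycosylase TDG cuts out the most oxidised bases so that repair can put an unmodified cytosine in their place. In the mouse, PGCs lose most of their DNA methylation while they migrate to and settle in the gonad, and the DNMT3 enzymes and UHRF1 fall during this period.

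On GRCg6a, the build of the deposited table, *UHRF1* (ENSGALG00000034271) lies on chromosome 28 from 4931452 to 4945091, minus strand, with 17 annotated exons. *DNMT1* (ENSGALG00000038018) lies on chromosome 30 from 993798 to 1011458, plus strand, with 33 exons. *DNMT3A* (ENSGALG00000041454) lies on chromosome 3 from 104568030 to 104584279, minus strand, with 21 exons. *DNMT3B* (ENSGALG00000041461) lies on chromosome 20 from 10249947 to 10263322, plus strand, with 23 exons. *TET2* (ENSGALG00000010592) lies on chromosome 4 from 38804855 to 38872224, minus strand, with 11 exons. *TDG* (ENSGALG00000031457) lies on chromosome 1 from 54693128 to 54704028, minus strand, with 10 exons. None of the 6 is on a sex chromosome. The span of *DNMT1* overlaps that of 1 other gene of the table and the span of *TDG* that of 2 others, and the other 4 overlap none.

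The 6 genes fell into a high, a middle and a low tier. *UHRF1* was the highest of them in all 12 libraries, with between 38.6 and 157 TPM and a median of 66.0 TPM. *DNMT3A*, with a median of 26.6 TPM, *DNMT3B*, with a median of 22.6 TPM, and *TDG*, with a median of 18.9 TPM, formed the middle tier. *TET2*, with a median of 1.02 TPM, and *DNMT1*, with a median of 0.849 TPM, were the lowest in all 12 libraries. The order within the tiers was not fixed: *DNMT3B* was above *DNMT3A* in 8 of 12 libraries, *DNMT3A* was above *TDG* in 7 and *TET2* was above *DNMT1* in 8. Neighbours within a tier are therefore not ranked here, and no test of levels between genes was run. The maintenance pair stood far apart in level, since *UHRF1* had between 25.3 and 221 times as many TPM as *DNMT1* in a library, with a median of 70.7 times. *DNMT1* values rest on 17 to 118 reads per library and *TET2* values on 16 to 124 reads, against 1128 to 3900 reads for *UHRF1*. Chromosome 30, where *DNMT1* lies, had 25.6% of its 133 genes at a mean of 5 TPM or more, against 35.8% of all genes. At a mean of 1 TPM or more, nearer the level of *DNMT1*, the shares were 48.1% and 51.2%.

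**Figure D1:**
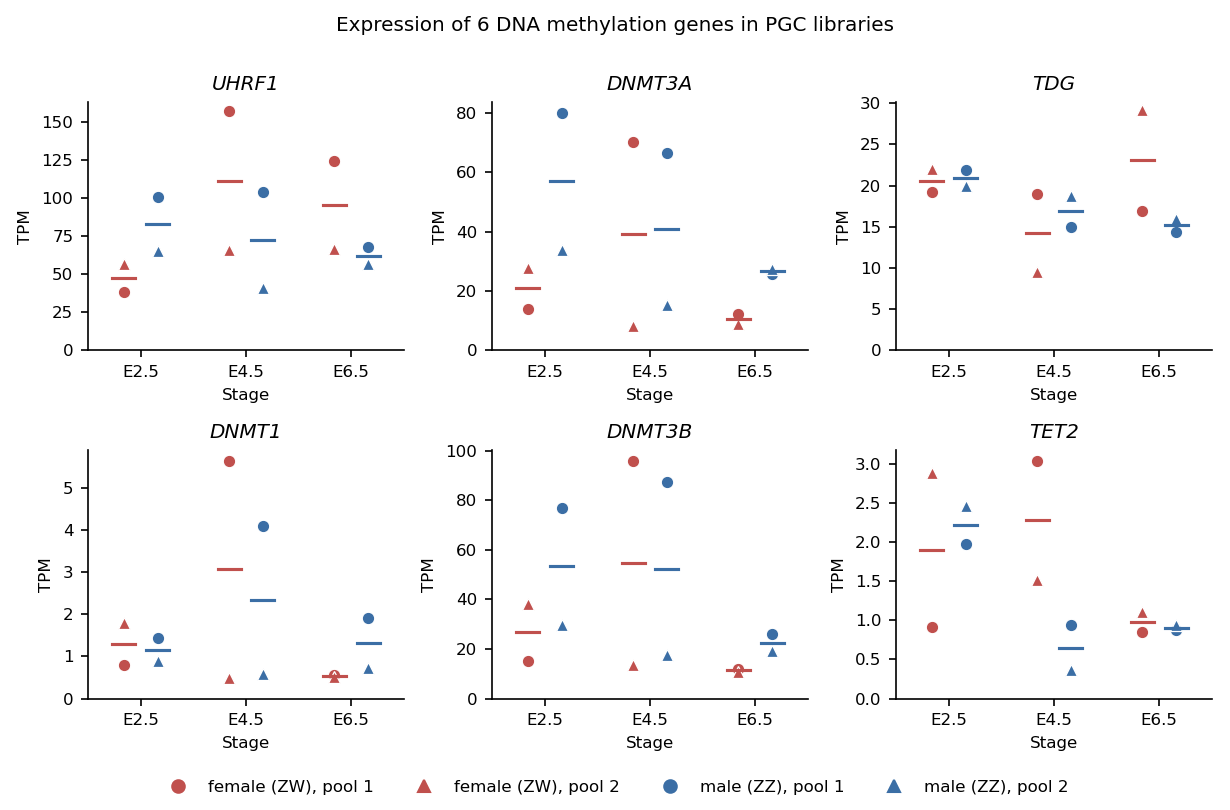
TPM of each gene (vertical axes, linear, from 0) by stage, with female libraries in red left of male libraries in blue; circles are pool 1, triangles pool 2 and bars the mean of 2 pools. In *UHRF1*, *DNMT1*, *DNMT3A* and *DNMT3B*, the 2 circles at E4.5 lie above both triangles, and *TDG* spans the narrowest range as a fold, between 9.47 and 29.1 TPM.

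*UHRF1*, the reader that brings DNMT1 to newly copied DNA, was the most abundant gene of the set at every stage. At E2.5 it had 38.6 and 56.4 TPM in ZW pools, against 100.5 and 65.3 TPM in ZZ pools. At E4.5 it had 156.8 and 65.7 TPM in ZW pools, against 103.7 and 40.9 TPM in ZZ pools. At E6.5 it had 124.4 and 66.4 TPM in ZW pools, against 67.5 and 56.6 TPM in ZZ pools. Both female cPGC libraries were thus below both male ones at E2.5, while the sexes overlapped at E4.5 and E6.5, where the female mean was the higher. Females over males at E2.5 came to a log2 fold change of -0.78 ± 0.37 (SE; limma, adjusted p = 0.435), beside a median of -0.34 over all genes tested, and -0.42 after median-of-ratios scaling. The sex difference at E4.5 was 1.41 ± 0.74 (SE) above that at E2.5 on the log2 scale, with an unadjusted p of 0.0801 and an adjusted p of 0.995 in limma, where the median over all genes was 0.33. The sex difference at E6.5 was 1.33 ± 0.74 (SE) above that at E2.5, with an adjusted p of 1 in limma. A change of the sex difference in *UHRF1* between blood and gonad was thus not established with these pools.

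*DNMT1*, the enzyme that maintains methylation through replication, stayed near 1 TPM in most libraries. At E2.5 its level was 0.806 and 1.79 TPM in ZW pools, against 1.43 and 0.892 TPM in ZZ pools. At E4.5 the pools within a sex were far apart, with 5.63 and 0.50 TPM in ZW pools, against 4.09 and 0.575 TPM in ZZ pools. At E6.5 its level was 0.563 and 0.516 TPM in ZW pools, against 1.92 and 0.735 TPM in ZZ pools. The sexes overlapped at E2.5 and E4.5, and at E6.5 *DNMT1* was below the minimum for testing, 1 TPM in at least 2 of the 4 libraries. Its highest values, in the first E4.5 pools, were 11.3 times the second pool in females and 7.12 times the second pool in males. Its log2 fold change of E6.5 over E4.5, -0.68 ± 0.52 (SE; limma, adjusted p = 0.564), became 0.28 without both first E4.5 pools.

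*DNMT3A*, a de novo methyltransferase, showed the largest sex difference among the tested members at both E2.5 and E6.5. In cPGCs at E2.5 its levels were 14.1 and 27.6 TPM in ZW pools, against 80.0 and 33.9 TPM in ZZ pools. In E6.5 gPGCs its levels were 12.4 and 8.84 TPM in ZW pools, against 25.8 and 27.5 TPM in ZZ pools. Both ZW pools lay below both ZZ pools at these stages, in blood and again in the gonad. At E4.5, with 70.0 and 8.28 TPM in ZW pools, against 66.5 and 15.2 TPM in ZZ pools, the sexes overlapped and the pools of 1 sex differed more than the sexes did. At E6.5 the female mean was 10.6 ± 2.49 TPM and the male mean 26.6 ± 1.17 TPM (SD, n = 2 each). The log2 fold change of females over males was -1.27 ± 0.31 (SE) at E6.5, with an unadjusted p of 0.00309 and an adjusted p of 0.0910 in limma, and -1.35 ± 0.48 (SE) at E2.5, with an unadjusted p of 0.0126 and an adjusted p of 0.321. Neither passed the threshold of 0.05.

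The *DNMT3A* value at E6.5 came close enough to the threshold that single choices decided the call. That at E2.5, with an adjusted p of 0.321 in limma, was further from it. There too the call depended on the choices. At E6.5 the adjusted p was 0.0463 when genes had to average 5 TPM or more to be tested and 0.00602 without the first ZW pool, and between 0.0548 and 1 under the other alternatives. The log2 fold change stayed between -1.49 and -1.05 under all of them. At E2.5 the adjusted p was 0.00505 without the second ZZ pool, where the log2 fold change was -1.96, and 0.903 without the first ZW pool, the one with the highest sum of erythroid markers, where it was -0.89. Without the first ZZ pool, the highest of all 12 libraries for *DNMT3A*, it was -0.75. Median-of-ratios scaling, which moved the median of all genes at E2.5 to -0.02 from -0.34, gave *DNMT3A* a log2 fold change of -0.998. The part of the erythroid RNA in the E2.5 difference was not tested.

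*DNMT3B*, the other de novo enzyme, followed *DNMT3A* closely. The E2.5 values were 15.2 and 38.2 TPM in ZW pools, against 77.0 and 29.6 TPM in ZZ pools. The E4.5 values were 95.9 and 13.5 TPM in ZW pools, against 87.3 and 17.6 TPM in ZZ pools. The E6.5 values were 12.1 and 10.8 TPM in ZW pools, against 26.1 and 19.0 TPM in ZZ pools. The sexes did not overlap at E6.5, where both ZW pools were the lower, and overlapped at E2.5 and E4.5. Females over males, its log2 fold change was -0.91 ± 0.31 (SE) at E6.5, with an unadjusted p of 0.0186 and an adjusted p of 0.216 in limma. It was -0.95 ± 0.51 (SE) at E2.5 (adjusted p = 0.488), with 0.0203 without the second ZZ pool. For both enzymes the sign of the difference at E2.5 and E6.5 was the same under every alternative tried. *DNMT3B* lay between -1.63 and -0.28 at E2.5 and between -1.13 and -0.69 at E6.5. Where both ZW pools were below both ZZ pools, leaving out 1 pool could not turn the sign. This was so for *DNMT3A* at both stages and for *DNMT3B* at E6.5.

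**Figure D2:**
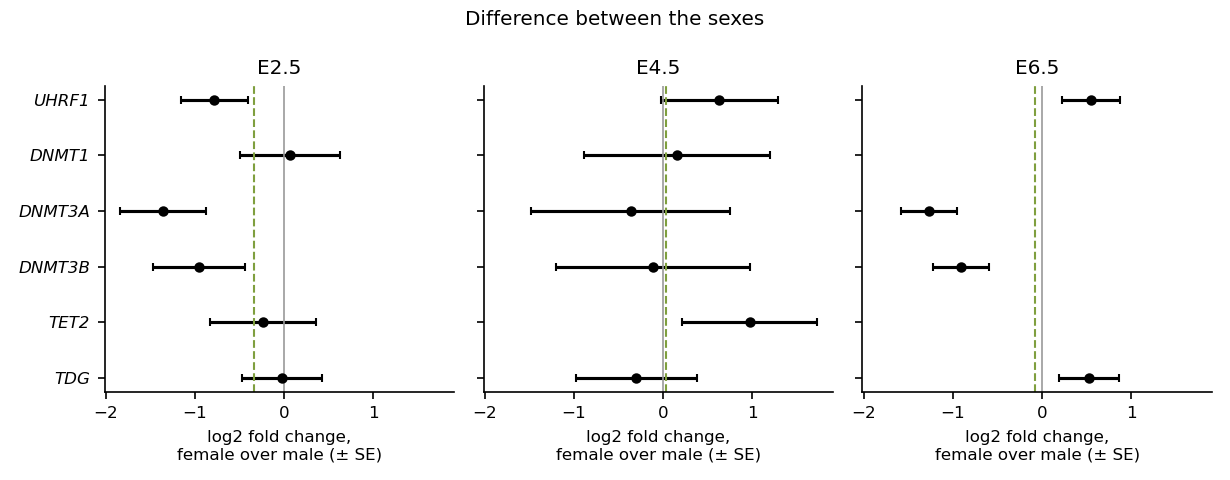
log2 fold change of females over males on log2(TPM + 1) (horizontal axes) for each gene, 1 panel per stage; points are limma estimates, bars ± SE, and the dashed line the median of all genes tested. *DNMT3A* and *DNMT3B* lie left of both lines at E2.5 and E6.5, the bars are widest at E4.5, and *DNMT1* and *TET2* were too low to be tested at E6.5.

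*DNMT3A* and *DNMT3B* rose and fell together from library to library. Over the 12 libraries, which share stages, sexes and preparation and so are not 12 independent points, Pearson's r of log2(TPM + 1) was 0.96 and Spearman's rho 0.94. Pearson's r was 0.94 over the 10 libraries other than the first E4.5 pools. Such values were not particular to the pair. Of 7336 other named genes averaging 5 TPM or more, 4.40% had an r above 0.9 with *DNMT3B* and 2.69% with *DNMT3A*. The ratio of *DNMT3B* to *DNMT3A* TPM stayed between 0.693 and 1.63, with a median of 1.12, while their summed TPM ran from 19.6 to 166. *DNMT1* went with *DNMT3B* (r = 0.88, and 0.76 without the first E4.5 pools) and with *DNMT3A* (r = 0.79, and 0.69 without them). *UHRF1* went less with the 3 enzymes, with r between 0.52 and 0.60, and between 0.08 and 0.23 without the first E4.5 pools. *TDG* did not follow any writer closely, with r between -0.04 and 0.13, and between -0.02 and 0.24 without the first E4.5 pools. These correlations are descriptions and carry no test.

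**Figure D3:**
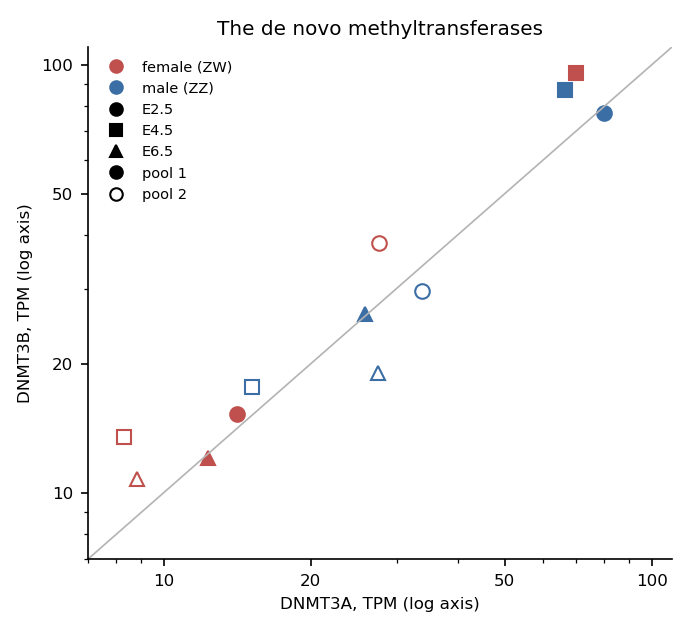
*DNMT3B* against *DNMT3A* in TPM (both axes logarithmic) in the 12 libraries; colour gives the sex, shape the stage, filled symbols pool 1, open symbols pool 2, and the line equal TPM. The points follow the line from the E6.5 ZW and second E4.5 pools at the low end to the first E4.5 pools and the first E2.5 ZZ pool at the high end.

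*TET2*, a dioxygenase that oxidises methylcytosine, was expressed at a low level throughout. At E2.5 it had 0.916 and 2.88 TPM in ZW pools, against 1.97 and 2.46 TPM in ZZ pools. At E4.5 it had 3.04 and 1.51 TPM in ZW pools, against 0.934 and 0.367 TPM in ZZ pools. At E6.5 it had 0.854 and 1.11 TPM in ZW pools, against 0.871 and 0.935 TPM in ZZ pools. Only at E4.5 were both ZW pools above both ZZ pools, with a log2 fold change of 0.97 ± 0.76 (SE; limma, adjusted p = 1.0). The 4 libraries of E6.5 lay close together, with 0.942 ± 0.116 TPM (SD, n = 4), against 2.06 ± 0.846 TPM at E2.5 (SD, n = 4). Its log2 fold change of E6.5 over E2.5 was -0.61 ± 0.37 (SE; limma, adjusted p = 0.438), and the first E2.5 ZW pool, at 0.916 TPM, lay within the E6.5 range.

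*TDG*, which excises oxidised methylcytosine, was the most even gene of the set, with a 3.07-fold range over the 12 libraries, against 4.06-fold for *UHRF1*, 8.27-fold for *TET2*, 8.91-fold for *DNMT3B*, 9.65-fold for *DNMT3A* and 11.3-fold for *DNMT1*. In the blood at E2.5 it had 19.2 and 22.0 TPM in ZW pools, against 21.9 and 19.95 TPM in ZZ pools. At E4.5 it had 19.0 and 9.47 TPM in ZW pools, against 15.0 and 18.8 TPM in ZZ pools. In the gonad at E6.5 it had 17.0 and 29.1 TPM in ZW pools, against 14.4 and 15.9 TPM in ZZ pools. All 4 E4.5 libraries were below all 4 E2.5 libraries, which held for 3.86% of all genes tested, and the log2 fold change was -0.44 ± 0.32 (SE; limma, adjusted p = 0.660). At E6.5 both ZW pools were above both ZZ pools, with a log2 fold change of 0.53 ± 0.34 (SE; limma, adjusted p = 0.540). This became 0.15 without the second ZW pool, which had the highest *TDG* value of all and the highest sum of mesonephros and epithelial markers. Whether cells other than PGCs had a part in the *TDG* value was not tested. By staining, the paper found nearly all sorted cells of both sexes at E6.5 positive for the germ cell protein CVH.

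None of the members passed an adjusted p of 0.05 in a comparison between the sexes, and the share of all genes that did was small. At E2.5, 0 of 6 members were called, against 0.242% of 12381 genes tested. At E4.5, 0 of 6 were called, against 0.0164% of 12229 genes. At E6.5, 0 of the 4 tested members were called, against 2.19% of 12029 genes. At an unadjusted p under 0.05 in limma there was 1 member at E2.5 (*DNMT3A*), against 1438 of 12381 genes. There were 0 at E4.5, against 121 of 12229 genes, and 2 at E6.5 (*DNMT3A* and *DNMT3B*), against 1762 of 12029 genes. limma-voom on the recovered reads also called 0 members at each stage. By that test 1, 0 and 2 members had an unadjusted p under 0.05, against 1068, 67 and 1694 of all genes. The smallest two-sided p that exact permutation of 2 against 2 libraries allows is 0.333.

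Separation of the sexes without overlap was common among all genes and is read against that. At E2.5 both ZW pools were below both ZZ pools for 2 of 6 members (*DNMT3A* and *UHRF1*), against 36.5% of all genes tested, and above them for 0 members, against 7.11%. At E4.5 they were above for 1 of 6 (*TET2*), against 8.01%, and below for 0, against 9.17%. At E6.5 they were below for 2 of 4 (*DNMT3A* and *DNMT3B*), against 28.2%, and above for 1 of 4 (*TDG*), against 18.2%. At E2.5 the members' share was near that of all genes, and at the other stages it rests on too few members to be set apart from it.

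Between stages, averaged over the sexes, none of the 6 members passed either. At E4.5 over E2.5, 0 of 6 were called, against 0.184% of 14154 genes tested. At E6.5 over E4.5, 0 of 6 were called, against 0.0%, with 1638 genes at an unadjusted p under 0.05. At E6.5 over E2.5, 0 of 6 were called, against 1.98%. No member had an unadjusted p under 0.05 in any stage comparison, by limma or by limma-voom. When the sex difference of a later stage was set against that of an earlier one, 0 of 6 members were called in each of the 3 pairs of stages (E4.5 and E2.5, E6.5 and E4.5, E6.5 and E2.5), each against 0.0% of 14154 genes, and an unadjusted p under 0.05 was reached by 393, 503 and 731 genes.

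The stage means of the de novo enzymes were lowest at E6.5. *DNMT3B* averaged 17.0 ± 7.09 TPM at E6.5 and 40.0 ± 26.4 TPM at E2.5 (SD, n = 4 each). *DNMT3A* averaged 18.6 ± 9.39 TPM at E6.5 and 38.9 ± 28.6 TPM at E2.5 (SD, n = 4 each). The stages overlapped for both genes. The log2 fold change of E6.5 over E2.5 was -1.05 ± 0.62 for *DNMT3B* (SE; limma, adjusted p = 0.424) and -0.90 ± 0.61 for *DNMT3A* (SE; limma, adjusted p = 0.483). Both stayed negative under every alternative, between -1.38 and -0.71 for *DNMT3B* and between -1.21 and -0.60 for *DNMT3A*. Without both first E4.5 pools, which are not among the libraries this contrast sets against each other but share its estimate of spread and its filter (13531 genes tested rather than 14154), the adjusted p was 0.0748 for *DNMT3B* and 0.0881 for *DNMT3A*, and 1467 genes were called rather than 280. At E6.5 over E4.5 the log2 fold change of *DNMT3B* was -1.20 ± 0.62 (SE; limma, adjusted p = 0.454) and became 0.05 without those pools, and that of *DNMT3A*, -0.71 ± 0.61 (SE; limma, adjusted p = 0.601), became 0.54. The direction between E4.5 and E6.5 therefore rests on the first E4.5 pools for *DNMT1*, *DNMT3A* and *DNMT3B*.

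At E4.5 the pools of 1 sex differed most, as a TPM ratio, in *DNMT1*, *DNMT3A* and *DNMT3B*. *DNMT1* had the widest gap in both sexes, 11.3 in ZW and 7.12 in ZZ, on few reads. *DNMT3A* had 8.46 times as many TPM in the first as in the second ZW pool and 4.38 times as many in the first as in the second ZZ pool. For *DNMT3B* these ratios were 7.10 in ZW and 4.95 in ZZ, for *UHRF1* 2.39 and 2.53, and for *TET2* 2.00 and 2.54. *TDG* went opposite ways, at 2.00 in ZW and 0.80 in ZZ. Differences of log2(TPM + 1), first minus second pool, were also ranked with their sign among 8726 genes. That of *DNMT3A* was above 98.7% of them in ZW and 93.0% in ZZ. That of *DNMT3B* was above 98.0% in ZW and 94.7% in ZZ. Both first E4.5 pools were above both second pools for 4 of 6 members (*DNMT1*, *DNMT3A*, *DNMT3B* and *UHRF1*), against 48.8% of all genes tested. For the de novo genes the gaps at the other stages were smaller and ran both ways: at E2.5 *DNMT3B* was 0.399 times as high in the first as in the second ZW pool and 2.60 times as high in the first as in the second ZZ pool. At E6.5 the pools of 1 sex lay within 1.40-fold of each other for both de novo genes. The first E4.5 pools had the fewest reads on genes, and their part in these gaps was not tested.

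**Figure D4:**
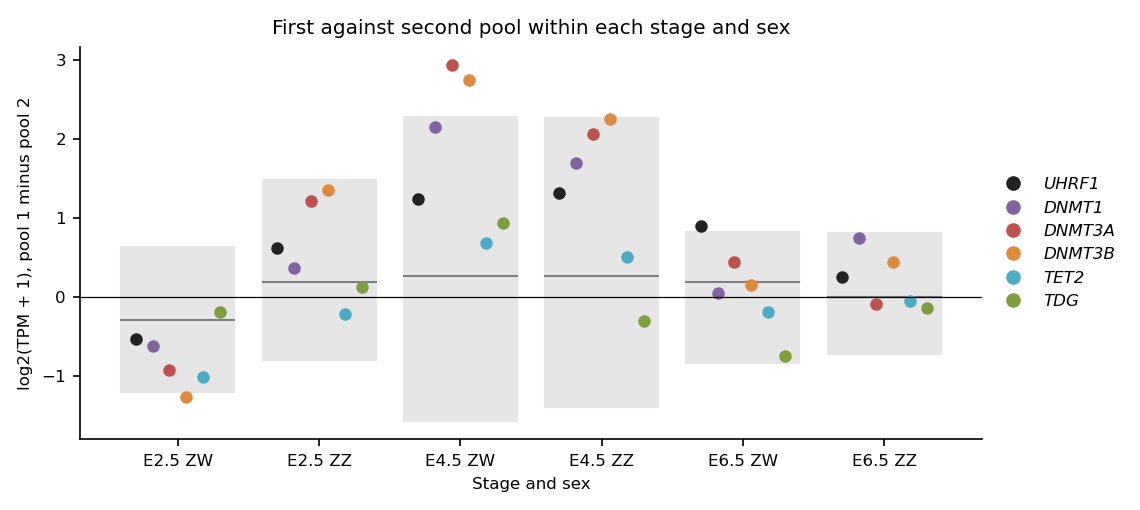
Difference of log2(TPM + 1) between pool 1 and pool 2 (vertical axis) for each stage and sex; points are the 6 genes, grey boxes the 5th to 95th percentile of 8726 genes and grey lines their median. At E4.5 *DNMT3A* and *DNMT3B* lie near or above the top of the boxes in both sexes, while at E6.5 they lie inside them.

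The genes whose pattern was most like each member over the 12 libraries were taken from the 7336 or 7337 other named genes that averaged 5 TPM or more. For *DNMT3B* they were *SP3*, a zinc finger transcription factor (r = 0.99), *BAG3*, a co-chaperone (r = 0.98), and *CPSF6*, a cleavage and polyadenylation factor (r = 0.98), where the median r of all candidates was 0.23. For *DNMT3A* they were *BAG3* (r = 0.98), *IGF2BP2*, an RNA-binding protein (r = 0.97), and *SAMHD1*, a nucleotide hydrolase (r = 0.97), with a median of 0.27. For *DNMT1* they were *MSL1* (r = 0.99), *TCF25* (r = 0.98) and *BRD2*, a bromodomain protein (r = 0.97), with a median of 0.11. *UHRF1* was most like *LYSMD2* (r = 0.95), *CMTM7* (r = 0.91) and *SNAP29* (r = 0.90), and *TET2* most like *ST3GAL1* (r = 0.95) and the junction proteins *DSP* (r = 0.93) and *TJP1* (r = 0.92). *TDG* had the weakest likeness, with *MCU* (r = 0.84) and *PAAF1* (r = 0.76) among its closest genes. An r above 0.9 was reached by 4.40% of the candidates for *DNMT3B*, 2.69% for *DNMT3A* and 2.82% for *DNMT1*. The share was 0.0545% for *UHRF1* and for *TET2*. Library depth and the pool differences are shared by all genes in these correlations.

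Among the maintenance partners, 9 of 10 listed genes were in the table and tested. Only 1 was called, at E6.5, against 2.19% of 12029 genes. This was *UHRF2*, the paralogue of *UHRF1*, which lies on the Z chromosome. At E6.5 it had 11.6 and 10.6 TPM in ZW pools, against 34.4 and 33.1 TPM in ZZ pools, with a log2 fold change of -1.52 ± 0.29 (SE; limma, adjusted p = 0.0356). At E2.5 it had 13.1 and 19.2 TPM in ZW pools, against 58.0 and 39.8 TPM in ZZ pools (limma, adjusted p = 0.225). At E4.5 it had 12.2 and 11.9 TPM in ZW pools, against 27.4 and 19.8 TPM in ZZ pools (limma, adjusted p = 1.0). Both ZW pools were below both ZZ pools at all 3 stages. Taken stage by stage, such a separation was found for 36.5% (E2.5), 9.17% (E4.5) and 28.2% (E6.5) of all genes tested. The call at E6.5 held in 6 of 12 alternatives, and the adjusted p was 0.0593 after median-of-ratios scaling and 0.0859 by limma-voom. The median log2 fold change of the 592 Z-linked genes tested at E6.5 was -0.87, against -0.06 for 11409 autosomal genes, and 68 Z-linked genes were called lower in females. Of the other partners, *HELLS*, a chromatin remodeller needed for full methylation, and *PCNA*, the replication clamp, were not called in any comparison, and the list's median log2 fold change at E6.5 was -0.28, beside -0.08 for all genes.

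**Figure D5:**
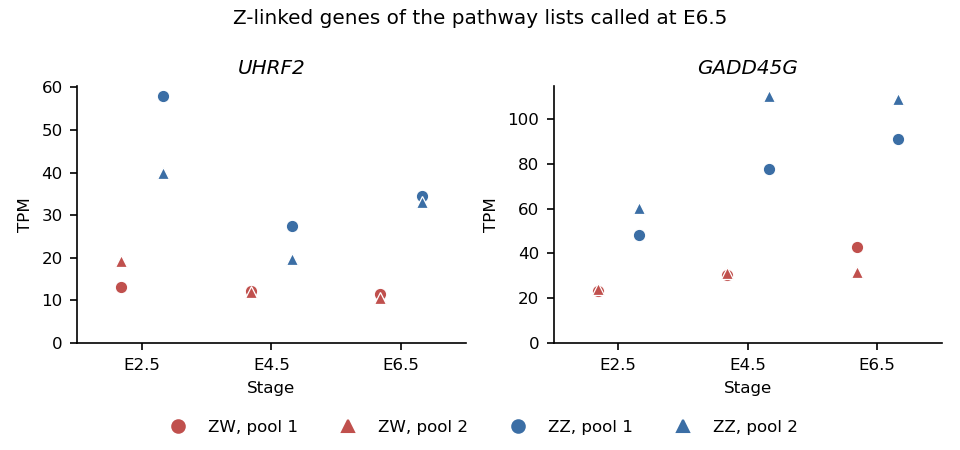
TPM of *UHRF2* and *GADD45G* (vertical axes, linear, from 0) by stage, with ZW pools in red left of ZZ pools in blue, circles pool 1 and triangles pool 2. At every stage both ZW pools lie below both ZZ pools; at E6.5 *UHRF2* had 11.6 and 10.6 TPM in ZW pools, against 34.4 and 33.1 TPM in ZZ pools.

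Among the genes of base excision repair and deamination, 13 of 18 were in the table and 9 were tested at each stage. Of these, 1 was called, at E6.5, against 2.19% of 12029 genes. *GADD45G*, a stress-response protein of a family linked to active demethylation, is also Z-linked. At E6.5 it had 43.0 and 31.8 TPM in ZW pools, against 90.8 and 109 TPM in ZZ pools, with a log2 fold change of -1.40 ± 0.27 (SE; limma, adjusted p = 0.0380). The call held in 5 of 12 alternatives, with an adjusted p of 0.0952 with limma-voom. At E2.5 it had 23.3 and 23.9 TPM in ZW pools, against 48.4 and 60.1 TPM in ZZ pools, and at E4.5 30.2 and 31.4 TPM in ZW pools, against 77.4 and 110 TPM in ZZ pools. The ZW pools were thus below the ZZ pools at every stage. Such a separation was found for 36.5% (E2.5), 9.17% (E4.5) and 28.2% (E6.5) of all genes tested. *GADD45G* was not called at E2.5 (limma, adjusted p = 0.312) or at E4.5. *UNG*, the uracil DNA glycosylase, and *PARP1*, a sensor of strand breaks, had more TPM than any of the 6 members in every library.

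The lists that feed the enzymes held 2 called genes, and both moved with the markers of neighbouring tissue. At E6.5, 1 of 11 tested methyl donor genes and 1 of 12 tested TET cofactor genes were called, against 2.19% of 12029 genes. *MAT1A*, an S-adenosylmethionine synthetase of the liver, had 17.2 and 164 TPM in E6.5 ZW pools, against 1.25 and 0.363 TPM in ZZ pools, with a log2 fold change of 4.97 ± 0.85 (SE; limma, adjusted p = 0.0269). *SLC23A1*, an epithelial transporter of ascorbate, the TET cofactor, had 28.3 and 64.7 TPM in E6.5 ZW pools, against 0.0936 and 0.308 TPM in ZZ pools, with a log2 fold change of 5.20 ± 0.44 (SE; limma, adjusted p = 0.00132). At E6.5 over E2.5, 1.98% of 14154 genes were called, and both genes were among them. The log2 fold changes were 3.06 ± 0.60 for *MAT1A* (SE; limma, adjusted p = 0.0248) and 2.77 ± 0.41 for *SLC23A1* (SE; limma, adjusted p = 0.00754). This call held in 11 of 21 alternatives for *MAT1A*, with a log2 fold change between 0.58 and 5.58, and in 17 of 20 for *SLC23A1*, between 2.47 and 5.396. At E2.5 *MAT1A* had 0.398 and 0 TPM in ZW pools, against 0.366 and 0 TPM in ZZ pools. The ZZ values of *MAT1A* at both stages were thus at most 1.25 TPM. *SLC23A1* had 0.0844 and 0 TPM in ZW pools at E2.5, against 0.186 and 0 TPM in ZZ pools. The ZZ values of *SLC23A1* at both stages were at most 0.308 TPM. In these E6.5 ZW pools 3 of the 7 tested mesonephros and epithelial markers were called higher, against 166 of 12029 genes. *APOA1* and *SLC34A1* were among the 3 markers. Whether cells other than PGCs had a part in *MAT1A* and *SLC23A1* was not tested. With limma-voom the adjusted p of the sex difference was 0.274 for *MAT1A* and 0.0952 for *SLC23A1*, and with single pools left out the fold change of *MAT1A* ran from 3.38 to 6.56 on the log2 scale.

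The methyl-CpG readers and the proliferation genes held no called gene. Of the methyl-CpG readers, 6 of 10 were in the table and 5 were tested, led by *MBD3*, a subunit of the NuRD repressor, at between 24.0 and 91.5 TPM. Of the 12 proliferation genes, 9 were tested, with a median log2 fold change of -0.98 at E2.5, beside -0.34 for all genes, and of -0.01 at E6.5, beside -0.08. At E2.5, 6 of these 9 had an unadjusted p under 0.05 in limma, against 1438 of all 12381 genes tested. The germ cell markers had a similar median of -0.98 at E2.5, when *DNMT3A*, *DNMT3B* and *UHRF1* were also lower in females than the median gene. At E2.5 the erythroid markers summed to 165417 and 2571 TPM in ZW pools, against between 15890 and 44514 TPM in ZZ pools, and the part of red blood cell RNA in these medians was not tested. From the RNA of bulk sorted cells alone, fewer germ cells and less RNA per germ cell cannot be told apart. By staining, the paper found nearly all sorted cells positive for the germ cell protein CVH in both sexes at E2.5.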

How the data were processed

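RNA of SSEA-1-sorted PGCs was sequenced from 12 libraries, made with the SMART-seq v4 and Nextera XT kits. Per the submitters' processing notes and the paper's methods, reads were trimmed (Trimmomatic 0.39, Trim Galore 0.6.6 with cutadapt 3.1), mapped to GRCg6a with STAR 2.7.3a and counted with featureCounts 2.0.1. The authors deposited TPM for 24356 genes together with gene lengths. The TPM times length were whole multiples of 1 step per library (100% of low values, tolerance 0.1 reads), which gave back the reads. Strandedness of counting is not given in the sources used here.

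Groups came from the sample titles. Sexes were compared on the 4 libraries of a stage, and stages and interactions on all 12, with limma 3.58.1 in R 4.3.3 (trend) on log2(TPM + 1), for genes that reached 1 TPM in at least 2 of them, with Benjamini-Hochberg adjustment over all genes and a threshold of 0.05. The fold changes are on this scale and understate those of low genes. The scripts were tested on simulated data. Figures were drawn with matplotlib 3.10.9.

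The members, the gene lists and the alternatives were chosen with earlier results of these data known. The genes named were the members, for each member the 3 genes with the highest correlation, and every called gene of the pathway lists, and other list genes were chosen after their values were seen. Some values under this rule are not reported here. Alternatives were a pseudocount of 0.1, no filter or one at a mean of 5 TPM, scaling by median of ratios, limma-voom on reads, a block for the replicate number, other sets of libraries and each pool left out. No sequence is shown, since no sequence table or genome of the files' build was used here.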

Additional observations from a re-analysis of the deposited data

How the results depend on the processing

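The directions of the *DNMT3A* and *DNMT3B* sex differences at E2.5 and at E6.5 held under every alternative, and calls depended on the choices. The filters and the replicate block leave these fold changes as they are. Leaving out 1 pool could turn the sign only for *DNMT3B* at E2.5, where the sexes overlapped. The members called were 1 with the replicate block at E2.5 and 1 with a filter at a mean of 5 TPM at E6.5 (*DNMT3A* both times), rather than 0. With the block at E4.5, 0 members were called and 1 had an unadjusted p under 0.05 in limma, against 1135 of 12229 genes. Leaving out 1 pool gave between 0 and 2 called members at E2.5 and between 0 and 1 at E6.5.

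Without both first E4.5 pools the log2 fold changes of E6.5 over E4.5 reversed to 0.28 for *DNMT1*, 0.54 for *DNMT3A* and 0.048 for *DNMT3B*, and *DNMT3A* there ran from -1.45 to 0.023 as single pools were left out. Same-numbered pools correlated between the sexes at 0.232 in cPGCs, and in gPGCs at 0.633 (E4.5) and -0.112 (E6.5), and between -0.179 and 0.378 between stages, so the numbers were not taken as pairs.

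Counts of all genes called moved as follows, the cause not being tested. Females over males at E2.5, 30 genes: 10 without a filter, 69 at a mean of 5 TPM, 563 with the replicate block and 17 with limma-voom, and 3 to 753 without 1 pool. At E4.5, 2 genes: 1 with median-of-ratios scaling, 51 with the replicate block, 0 with limma-voom and 21 with all 12 libraries, and 2 to 8 without 1 pool. At E6.5, 263 genes: 10 without a filter, 74 with median-of-ratios scaling, 12 with limma-voom and 148 with all 12 libraries, and 34 to 839 without 1 pool. A block of crossed numbers, chosen after seeing the data, gave 563. E4.5 over E2.5, 26 genes: 2 without a filter, 7 with median-of-ratios scaling, 0 with limma-voom, 0 in females, 7 in males and 10 without both first E4.5 pools, and 2 to 116 without 1 pool. E6.5 over E4.5, 0 genes: 6 with the replicate block and 95 in females, and 0 to 397 without 1 pool. E6.5 over E2.5, 280 genes: 172 without a filter, 148 in females, 8 in males and 1467 without both first E4.5 pools, and 28 to 538 without 1 pool. The interactions, 0 genes each: 16 for E6.5 against E4.5 with the replicate block, 16 for E6.5 against E2.5 without both first E4.5 pools, and 0 to 116 and 0 to 86 without 1 pool. Median-of-ratios scaling changed the split of calls to 26 higher and 2 lower in females at E2.5, from 23 and 7, and to 62 and 12 at E6.5, from 166 and 97. At E4.5 over E2.5 it gave 6 higher and 1 lower at the later stage, from 5 and 21. At E6.5 over E2.5 the calls of *MAT1A* (adjusted p = 0.145) and *SLC23A1* (adjusted p = 0.0597) were lost with limma-voom. The reads behind *DNMT1* and *TET2*, at most 118 and 124 in a library, limit what can be seen in them.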
